A study of Mus musculus with 6 samples.

Results

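The mRNAs of 10 glycolytic enzymes were followed in mouse synaptoneurosomes. The genes, taken by name from a table of 21958 protein-coding genes, were Hk1, Pfkp, Aldoa, Tpi1, Gapdh, Pgk1, Eno1, Eno2, Pkm and Ldhb. All 10 were measured in every library and passed the filter on low counts, as did 12255 genes in all. Synaptoneurosomes are a fraction of brain homogenate enriched in pinched-off synapses. They were prepared from the hippocampus, with cortex lying next to it, of male FVB mice aged 6 to 8 weeks. The study's methods describe material of 6 mice split into aliquots, and do not state whether each preparation used 6. One group (unstimulated total, n = 3) held total RNA of synaptoneurosomes without stimulation. The other group (NMDA polyribosomes, n = 3) held RNA of the pooled polyribosomal fractions of a sucrose gradient, taken after a pulse of 50 µM NMDA and 10 µM glutamate for 30 s, addition of the NMDA receptor blocker APV at 120 µM, and incubation for 20 min at 37 °C. According to the study's methods, the gradients were run on lysates made with cycloheximide, and the pool joined light and heavy polyribosomes but left out RNA granules. Unstimulated controls stood on ice with cycloheximide, according to the same methods. These describe the total RNA both as taken from a saved synaptoneurosome aliquot and as taken from lysate supernatant set aside before the gradient. The groups therefore differed in stimulation, incubation, use of cycloheximide before lysis and fraction at once, and these cannot be told apart. The comparison asks which mRNAs of the synaptic fraction were relatively more abundant on polyribosomes after NMDA-R stimulation than in unstimulated total RNA.

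Glycolysis splits glucose into pyruvate in the cytosol and yields ATP and NADH, and lactate dehydrogenase interconverts pyruvate and lactate. Hexokinase and phosphofructokinase act early and spend ATP, whereas phosphoglycerate kinase and pyruvate kinase act late and return it. Many steps are served by isozymes from separate genes, with different distribution among brain cells: Eno2 is the neuron-enriched enolase, Eno1 is the widely expressed form, and Aldoc is the aldolase that is abundant in astrocytes. In the brain, glycolytic enzymes are found in nerve terminals, where ATP use is high, and astrocytes are known for strong glycolysis and lactate release.

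Counts on protein-coding genes summed to between 5294482 and 7361580 in the polyribosome libraries and to between 1044955 and 3738022 in the total libraries. Abundances are given as CPM, the counts scaled to a common library size with edgeR's TMM factors. Differences are given as log2 fold changes of polyribosomes over total, with their standard errors (SE). The libraries of preparation 3 stood apart for these genes. All 10 mRNAs had their highest CPM among the polyribosome libraries in replicate 3, and 9 of 10 (all but Tpi1) were highest in replicate 3 in both groups, against 23.5% of all genes tested. Total replicate 3 was also the shallowest library. Calls and the median of the 10 mRNAs are therefore given without preparation 3 as well. The same holds for the medians of the lists of connected pathways and of cell types. Libraries with the same replicate number were taken as aliquots of 1 preparation, and a second fit included the replicate number as a block.

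In raw counts, all 10 mRNAs were higher in the polyribosome library than in the total library of the same preparation, but so was the depth. The library totals of preparations 1, 2 and 3 differed 1.97-fold, 2.36-fold and 5.07-fold. Raw counts were higher 1.68-fold for Pfkp to 2.84-fold for Aldoa in preparation 1, 2.18-fold for Pfkp to 3.82-fold for Ldhb in preparation 2, and 5.21-fold for Pfkp to 9.38-fold for Ldhb in preparation 3. The ratio exceeded that of the library totals for 8, 9 and 10 of the 10 mRNAs, respectively. Pfkp thus gave the smallest ratio of the 10 in each preparation.

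The 10 mRNAs together took a larger share of the counts on polyribosomes. Their share was 0.345%, 0.388% and 0.578% in polyribosome replicates 1 to 3 and 0.296%, 0.293% and 0.374% in total replicates 1 to 3, with means of 0.437% ± 0.124 and 0.321% ± 0.0460 (SD, n = 3). The ranges overlapped, since total replicate 3 was above polyribosome replicate 1. Within each preparation the polyribosome library had the higher share, by 0.0488, 0.0949 and 0.204 percentage points. Leaving out polyribosome replicate 3 reduced the difference of the group means from 0.116 to 0.0453 percentage points. A share measured in bulk RNA does not tell whether cells of a type were fewer or held less RNA per cell, and the same holds for all values given here.

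All 10 log2 fold changes were above 0, with a median of 0.56, beside 0.00 for all genes tested. None passed an adjusted p of 0.01 in the quasi-likelihood test of edgeR fitted on the groups alone, in which 0.710% of all genes were called higher and 2.36% lower. At an unadjusted p under 0.05, 7 of 10 were higher, against 15.4% of all genes. The polyribosome libraries all lay above the total libraries for 4 mRNAs, Aldoa, Tpi1, Gapdh and Ldhb, against 17.4% of all genes. All but Pfkp and Eno2, 8 of the 10, were higher in each of the 3 same-numbered pairs, against 30.2% of all genes.

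With the replicate block, 7 of 10 mRNAs passed an adjusted p of 0.01 and were called higher, where 11.8% of all genes were called higher and 13.2% lower. They were Aldoa, Tpi1, Gapdh, Pgk1, Eno1, Pkm and Ldhb, and Hk1, Pfkp and Eno2 did not pass. The count depended on the preparations. It was 7 without preparation 1 (5.15% of all genes), 2 without preparation 2 (Aldoa and Ldhb, 4.19% of all genes), and 6 without preparation 3 (all but Pgk1 of the 7, 11.7% of all genes). Without the block, leaving out preparation 3 gave 2 calls, Aldoa and Ldhb, where 3.61% of all genes were called higher, and a median of 0.38 over the 10. Keeping all genes with a count in the fit on the groups alone also gave these 2, where 2.84% of all genes were called higher. DESeq2, fitted without the block, called 1 mRNA higher, Ldhb, where 3.31% of all genes with an adjusted p were called higher. Together with an offset for GC content and exon length, the blocked fit called Ldhb alone. This 1 of 10 was near the 8.94% of all genes called higher there, and the median of the 10 was then 0.25.

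**Figure D1:**
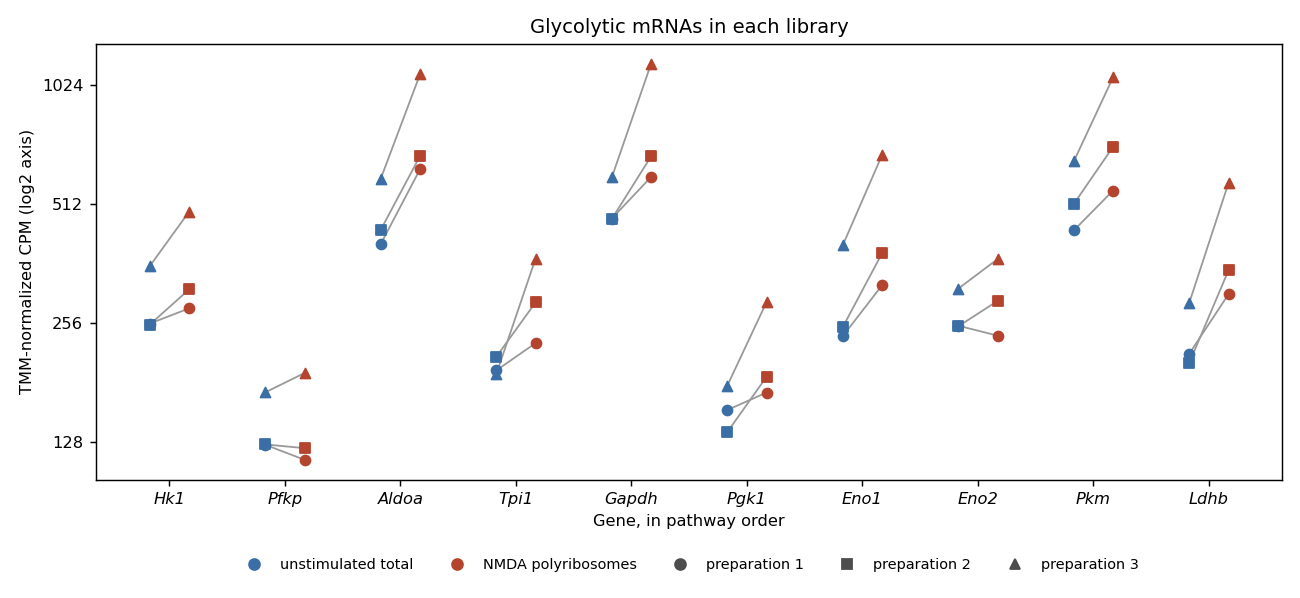
TMM-normalized CPM (log2 axis) of the 10 glycolytic mRNAs in pathway order, in the 3 unstimulated total libraries (blue) and the 3 NMDA polyribosome libraries (red), with lines joining libraries of 1 preparation. Aldoa, Tpi1, Gapdh and Ldhb have no overlap between the groups, and the lines of Pfkp fall in preparations 1 and 2, that of Eno2 in preparation 1.

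Most of the 10 mRNAs had a higher GC content and a shorter transcript than the median gene tested, features not used to choose them. Their main transcripts had a median GC content of 55.0%, beside 50.5% over all genes tested, and 8 of 10 were above the latter. They were short, with a median transcript length of 1926 bases beside 3277, and 8 of 10 were below the latter. The 3′ UTR had medians of 481 and 1147 bases, whereas those of the coding sequence, 1280 and 1443 bases, were closer. Pfkp, with the smallest fold change, had the lowest GC content (48.9%) and the longest transcript (4145 bases) of the 10. The relation of these features to the fold changes was not tested.

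Sequences around the start codon are shown for both enolases and for the mRNAs with the largest and the smallest fold change of the 10, since initiation sets the loading of ribosomes and the flanks of this codon take part in it. They come from Gencode vM21 transcripts (GRCm38), 5′ to 3′, with the start codon in capitals:
Eno1: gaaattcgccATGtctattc
Eno2: cccagccatcATGtctatag
Ldhb: tctggacaagATGgcaaccc
Pfkp: cctcctcatcATGagtgact
A purine stood 3 bases before the start codon in 9 of the 10 mRNAs, against 86.8% of all genes tested, and a G followed the start codon in 4 of 10, against 52.7%. Neither count is far from its background, and of the sequences shown Ldhb alone has both. These matches are a description of the letters only.

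Hk1 and Pfkp encode enzymes of the early, ATP-consuming steps, and neither was called in any fit that was run. Hk1, the main hexokinase of the brain, phosphorylates glucose as it enters the cell. The gene lies at chr10:62268855-62379908 (GRCm38, minus strand). Hk1 had 255, 254 and 357 CPM in total replicates 1 to 3 and 279, 311 and 490 CPM on polyribosomes. The groups overlapped, since total replicate 3 was above polyribosome replicates 1 and 2. The fitted log2 fold change was 0.33 (SE 0.22, adjusted p = 0.330), and with the block it was 0.29 (SE 0.12, adjusted p = 0.0557). It was 0.20 with the GC and length offset in the blocked fit (adjusted p = 0.201), 0.20 without preparation 3 and 0.046 without polyribosome replicate 3.

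Pfkp encodes the platelet-type subunit of phosphofructokinase, the regulated step that commits fructose 6-phosphate to glycolysis (chr13:6579768-6648777, minus strand). Pfkp had 126, 126 and 171 CPM in the total libraries and 115, 123 and 191 CPM on polyribosomes. The polyribosome value was below its total in preparations 1 and 2 and above it in preparation 3. Its log2 fold change of 0.04 (SE 0.21, adjusted p = 0.925) was the lowest of the 10, and turned to -0.01 with the block, to -0.08 with library totals in place of TMM and to -0.09 without preparation 3. With the GC and length offset it was 0.16, and with the block as well 0.11 (adjusted p = 0.533). Its SE leaves room for a difference of either sign.

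The other phosphofructokinase subunits gave larger values than Pfkp. Pfkm, the muscle-type subunit, had 277, 264 and 324 CPM in the total libraries and 369, 344 and 544 CPM on polyribosomes, with no overlap and a log2 fold change of 0.54 (adjusted p = 0.0728, and 5.95e-04 with the block). Pfkl, the liver-type subunit, had 81.7, 79.7 and 82.5 CPM in total and 100.2, 120 and 159 CPM on polyribosomes, again with no overlap and a log2 fold change of 0.64 (adjusted p = 0.0347, and 1.57e-04 with the block). Neither was called once GC content and length were offset in the blocked fit (adjusted p = 0.0218 and 0.0146). Hk2, the other main hexokinase, was rare, at 5.41 to 8.03 CPM over the 6 libraries, and its log2 fold change was 0.05 (SE 0.27, -0.01 with the block). Gpi1, the isomerase between hexokinase and phosphofructokinase, had 272, 276 and 401 CPM in total and 365, 383 and 613 CPM on polyribosomes, with overlap through total replicate 3 and a log2 fold change of 0.53 (adjusted p = 0.118, and 6.54e-04 with the block, but 0.0125 with the offset as well).

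Aldoa and Tpi1 carry the split of the 6-carbon sugar, and both were higher on polyribosomes with the block. Aldoa encodes aldolase A, which cleaves fructose 1,6-bisphosphate (chr7:126795234-126800751, minus strand). It had 406, 441 and 595 CPM in the total libraries and 628, 679 and 1094 CPM on polyribosomes, and the lowest polyribosome library was above the highest total library. Its log2 fold change was 0.74 (SE 0.23, adjusted p = 0.0406), and with the block 0.71 (SE 0.13, adjusted p = 2.22e-06). The increase was 0.63, 0.62 and 0.88 in the 3 pairs. With the block and the GC and length offset it was 0.33 and did not pass (adjusted p = 0.0256). Without preparation 3, and without the block, Aldoa passed (0.62, adjusted p = 0.00358).

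Aldoc, which encodes the other aldolase of the brain, gave the largest fold change among the glycolytic mRNAs tested. It had 1632, 1623 and 2439 CPM in total and 3511, 2902 and 5441 CPM on polyribosomes, with no overlap. The log2 fold change was 1.06 (SE 0.25, adjusted p = 0.0142), and with the block 1.03 (adjusted p = 1.13e-10), and with the GC and length offset as well 0.96 (adjusted p = 5.71e-10). Aldoc alone took 0.378% ± 0.111 of a polyribosome library's counts and 0.195% ± 0.0419 of a total library's (SD, n = 3).

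Tpi1 encodes triosephosphate isomerase, which interconverts both products of aldolase (chr6:124810586-124814296, minus strand). It had 194, 210 and 190 CPM in the total libraries and 228, 289 and 373 CPM on polyribosomes, with no overlap. Tpi1 was the mRNA of the 10 whose total libraries agreed best, with a mean of 198 ± 10.6 CPM (SD, n = 3) beside 296 ± 72.9 CPM on polyribosomes. Its pairs differed by 0.23, 0.46 and 0.97. Its log2 fold change was 0.58 (SE 0.19, adjusted p = 0.0531), and with the block 0.53 (adjusted p = 4.39e-04), but it did not pass with the GC and length offset (0.29, adjusted p = 0.0519).

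Gapdh, Pgk1 and Pgam1 act on the 3-carbon intermediates. Gapdh oxidizes glyceraldehyde 3-phosphate and makes NADH (chr6:125161715-125166467, minus strand). It had 471, 470 and 598 CPM in the total libraries and 599.9, 677 and 1162 CPM on polyribosomes, so the groups were separated only narrowly. Its log2 fold change was 0.67 (SE 0.23, adjusted p = 0.0637), and with the block 0.61 (adjusted p = 5.87e-05), but 0.22 with the GC and length offset (adjusted p = 0.171).

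Pgk1 encodes phosphoglycerate kinase, the first ATP-yielding enzyme of the pathway (chrX:106187100-106203699, plus strand). It had 154, 135 and 177 CPM in the total libraries and 170, 187 and 289 CPM on polyribosomes, and total replicate 3 was above polyribosome replicate 1. For Pgk1 the log2 fold change was 0.48 (SE 0.21, adjusted p = 0.128), and with the block 0.43 (adjusted p = 0.00472), but 0.32 with the GC and length offset (adjusted p = 0.0253). Pgam1, the mutase of the next step, had 49.2, 66.0 and 65.2 CPM in total and 88.9, 79.5 and 146 CPM on polyribosomes. Its log2 fold change of 0.81 (adjusted p = 0.0292) was called with the block (0.73, adjusted p = 4.6e-06) and also with the GC and length offset (0.51, adjusted p = 5.4e-04).

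The enolases, which make phosphoenolpyruvate, gave different values. Eno1 encodes the widely expressed form (chr4:150236721-150248879, plus strand) and Eno2 the neuron-enriched form (chr6:124760053-124769673, minus strand). Eno1 had 237, 250 and 403 CPM in the total libraries and 319, 384 and 682 CPM on polyribosomes. Total replicate 3 was above polyribosome replicates 1 and 2, but polyribosomes were higher in each pair, by 0.43, 0.62 and 0.76. The log2 fold change of Eno1 was 0.65 (SE 0.27, adjusted p = 0.111), and with the block 0.60 (SE 0.12, adjusted p = 5.05e-05), but 0.29 with the GC and length offset (adjusted p = 0.0499).

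Eno2 had 252, 251 and 313 CPM in the total libraries and 238, 291 and 371 CPM on polyribosomes. The groups overlapped widely, and preparation 1 was lower on polyribosomes by 0.08. The log2 fold change of Eno2 was 0.15 (SE 0.19, adjusted p = 0.635), and with the block 0.12 (SE 0.12, adjusted p = 0.471), and it turned to -0.07 with the GC and length offset in the blocked fit (adjusted p = 0.688). Eno3, the muscle enolase, had too few counts to be tested.

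Pkm and Ldhb end the pathway. Pkm encodes pyruvate kinase, which makes pyruvate and ATP (chr9:59656368-59679375, plus strand), and the counts do not separate its alternatively spliced M1 and M2 forms. Pkm had 439, 512 and 657 CPM in the total libraries and 554, 715 and 1073 CPM on polyribosomes, and total replicate 3 was above polyribosome replicate 1. The groups differed by 0.55 on the log2 scale (SE 0.23, adjusted p = 0.121), and with the block 0.51 (adjusted p = 6.6e-04), but 0.19 with the GC and length offset (adjusted p = 0.235).

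Ldhb, whose start-codon flanks were given with the sequences, encodes the heart-type subunit of lactate dehydrogenase (chr6:142490249-142507957, minus strand), and it had the largest fold change of the 10. It had 214, 203 and 288 CPM in the total libraries and 303, 348 and 579 CPM on polyribosomes, with no overlap. The pairs differed by 0.50, 0.78 and 1.01. The log2 fold change was 0.81 (SE 0.23, adjusted p = 0.0334), or 1.76-fold, and with the block 0.76 (SE 0.13, adjusted p = 5.65e-07). Ldhb was the only 1 of the 10 still called in the blocked fit with the GC and length offset (0.48, adjusted p = 6.87e-04). In that fit 8.94% of all genes were called higher, so 1 of 10 was near the share of all genes. Ldhb also passed without preparation 3 in the fit on the groups alone (0.63, adjusted p = 0.00318). Ldha, the muscle-type subunit, had 139, 137 and 201 CPM in total and 145, 177 and 238 CPM on polyribosomes, with a log2 fold change of 0.25 (SE 0.21, adjusted p = 0.451, and 0.155 with the block).

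**Figure D2:**
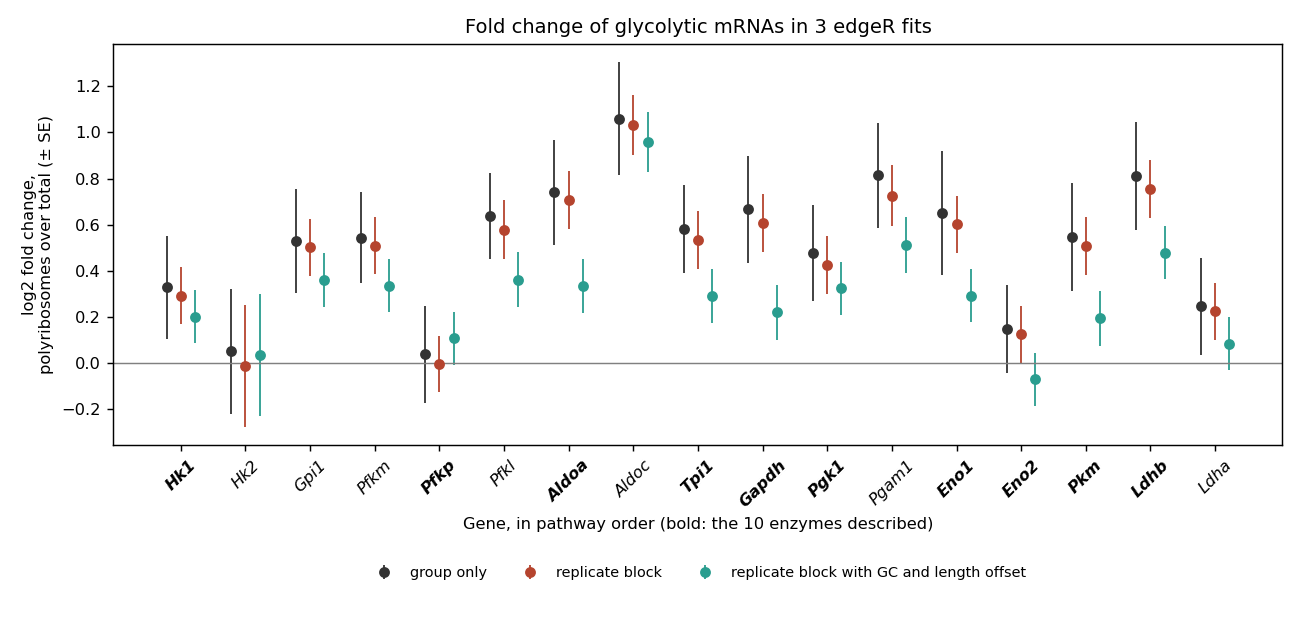
Log2 fold change of polyribosomes over total (points, with bars of 1 standard error) along the pathway in 3 edgeR fits. Genes are the 10 enzymes (bold), their partner isozymes, Gpi1 and Pgam1. Of these, Aldoc, Pgam1 and Ldhb alone are called in the blocked fit with the GC and length offset (0.96, 0.51 and 0.48). Pfkp lies at 0.04 without and -0.01 with the block. Eno2 falls from 0.15 to -0.07 when the block and the GC and length offset are applied.

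Ratios of isozymes within a library do not depend on how libraries were scaled, and 6 were compared. With 3 libraries against 3, a two-sided exact permutation test cannot go below p = 0.1, so no ratio could pass 0.05. Eno2 relative to Eno1 was lower on polyribosomes. The log2 ratio of their counts was 0.09, 0.01 and -0.37 in total replicates 1 to 3 and -0.42, -0.40 and -0.88 on polyribosomes, with no overlap (difference -0.48, exact p = 0.1, adjusted over 6 ratios 0.12). The difference was -0.51, -0.41 and -0.51 within the 3 preparations, with an SD of 0.0604 over the preparations, beside 0.166 for Eno1 and 0.183 for Eno2. An exact sign-flip test over 3 pairs cannot go below 0.25, the value each of the 6 ratios gave.

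Ldhb relative to Ldha was higher on polyribosomes, with log2 ratios of 0.62, 0.57 and 0.51 in the total libraries and 1.06, 0.97 and 1.29 on polyribosomes (difference 0.54, exact p = 0.1, adjusted 0.12). Aldoa relative to Aldoc was lower, although both mRNAs had more CPM on polyribosomes, with log2 ratios of -2.01, -1.88 and -2.04 in total and -2.48, -2.10 and -2.31 on polyribosomes (difference -0.32, exact p = 0.1, adjusted 0.12). Pfkp was lower relative to both Pfkm (difference -0.51, adjusted exact p = 0.12) and Pfkl (difference -0.61, adjusted exact p = 0.12), without overlap in either. Hk1 relative to Hk2 overlapped between the groups (difference 0.26, exact p = 0.3), and Hk2 was too rare for a precise ratio. In the blocked fit with the GC and length offset, the fitted differences kept their direction, at -0.36 for Eno2 to Eno1, 0.39 for Ldhb to Ldha, -0.63 for Aldoa to Aldoc, -0.23 for Pfkp to Pfkm, -0.26 for Pfkp to Pfkl and 0.17 for Hk1 to Hk2.

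**Figure D3:**
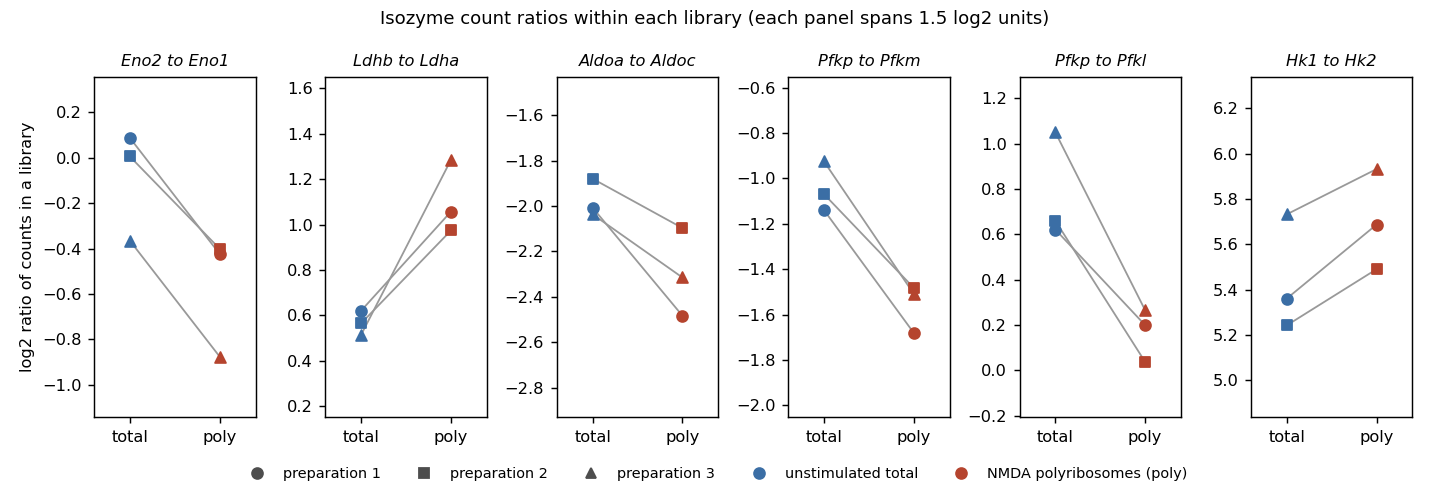
Log2 ratio of the counts of 2 isozymes in each library, with lines joining the total and polyribosome library of 1 preparation, and each panel spanning the same height. All 3 lines of a panel run the same way, downward for Eno2 to Eno1, Aldoa to Aldoc and the Pfkp ratios and upward for Ldhb to Ldha and Hk1 to Hk2, and only the last of these overlaps between the groups.

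Per kilobase of exon, so that genes can be compared, isozyme shares differed between the groups by a few percentage points. Eno1 made up 53.9% ± 4.14 of the enolase level (Eno1 and Eno2) in total and 61.9% ± 4.32 on polyribosomes (SD, n = 3). Ldhb made up 68.3% ± 0.796 of the lactate dehydrogenase level in total and 75.7% ± 2.03 on polyribosomes. Aldoc was the major aldolase, with 70.6% ± 1.21 in total and 75.0% ± 2.52 on polyribosomes. Pfkm was the major phosphofructokinase in both groups, and Pfkp made up 21.6% ± 1.56 in total and 16.0% ± 0.754 on polyribosomes. Hk1 held 98.0% ± 0.327 of the hexokinase level (Hk1 and Hk2) in total and 98.4% ± 0.245 on polyribosomes.

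The levels of the 10 mRNAs spanned more than an order of magnitude along the pathway. On polyribosomes, the mean level was 544 CPM per kilobase for Gapdh, 439 for Aldoa, 314 for Ldhb, 300.4 for Pkm, 181 for Eno1, 168 for Tpi1, 118 for Pgk1, 107 for Eno2, 74.2 for Hk1 and 33.3 for Pfkp, beside a median of 6.75 over all genes tested. In total RNA, the order was Gapdh (343 CPM per kilobase), Aldoa (263), Pkm (206), Ldhb (180), Eno1 (116), Tpi1 (112), Eno2 (97.2), Pgk1 (85.2), Hk1 (59.4) and Pfkp (32.7), beside a median of 6.96. All 10 were above the median mRNA, and Hk1 and Pfkp had the lowest levels of the 10.

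Most neighbours in this order were not separated by their spread. On polyribosomes, Hk1 and Pfkp were the only neighbours whose 3 libraries did not overlap, and in total RNA the same held for Pgk1 over Hk1 and Hk1 over Pfkp. Compared within each library, Gapdh was above Aldoa and Aldoa above the next mRNA in 3 of 3 libraries of each group. Per kilobase of exon, Pkm was above Ldhb in 3 of 3 total libraries, and Ldhb above Pkm in 2 of 3 polyribosome libraries. This order depended on the length used. Per kilobase of coding sequence, Pkm was above Ldhb in both groups. The means were 489 and 408 CPM on polyribosomes, and 336 and 234 CPM in total. Eno2 was then above Pgk1 in both groups, with means of 230 and 172 CPM on polyribosomes and 208 and 124 CPM in total. Eno1 and Tpi1 could not be ordered in either group, with Eno1 higher in 1 of 3 libraries.

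**Figure D4:**
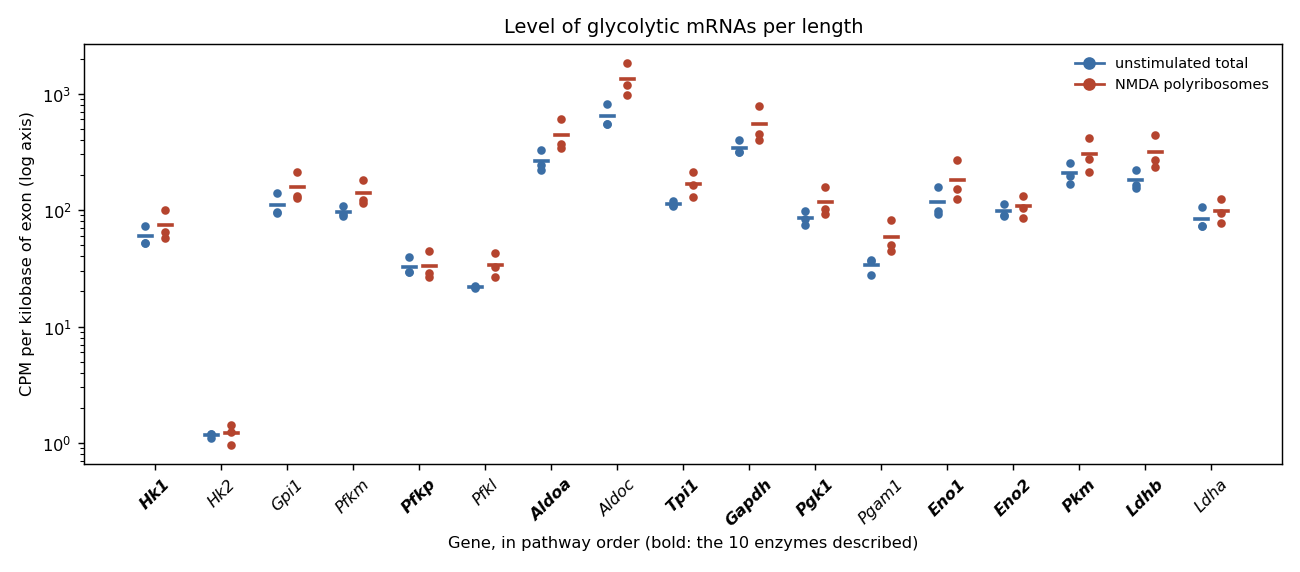
Level in CPM per kilobase of exon (log axis) of glycolytic mRNAs in pathway order, with points for single libraries and bars for the group means. Aldoc has the highest level in both groups, Gapdh and Aldoa the highest of the 10 enzymes, and Hk2 lies below the median of all genes.

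Some of the counts may include reads of near-identical genes, because the sources used here do not give how the counting treated reads that map to several places or whether it used the strand. Of all 100-base windows of the main transcript, 78.0% were found in transcripts of other genes for Gapdh, 67.0% for Pgk1 and 59.0% for Eno1, so these 3 values are uncertain. The share was 16.0% for Pfkp, which overlaps exons of Pitrm1 on the other strand, 9.82% for Pkm, 8.80% for Ldhb and 0.796% for Tpi1. Shorter exon overlaps with neighbouring genes, of 25 bases for Aldoa, 34 for Tpi1, 157 for Hk1 and 334 for Pkm, were also annotated. Aldoa, Hk1 and Eno2 shared no 100-base window with another gene. The copy Eno1b had counts of its own, and with both genes summed the log2 fold change of Eno1 was 0.61, and with the block 0.57 (adjusted p = 1.12e-04).

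Genes of connected pathways were read from lists of genes, and none passed 0.01 in the fit on the groups alone with all 6 libraries, TMM scaling and no offset. Of 21 other glycolytic enzymes and isozymes, 10 were tested, with a median log2 fold change of 0.47, and 5 were called higher with the block (Aldoc, Gpi1, Pfkl, Pfkm and Pgam1), of which Aldoc and Pgam1 remained with the GC and length offset. Of 12 genes of glucose and lactate transport, all were tested (median 0.37) and 2 were called higher with the block, a share near the 11.8% of all genes. They were Slc2a1, the glucose transporter GLUT1 of endothelium and astrocytes, with the highest value (0.77, adjusted p = 0.0351, and 5.91e-06 with the block), and Bsg, the chaperone of lactate transporters (0.69, adjusted p = 0.0197, and 5.31e-06 with the block, but 0.0617 with the offset as well). Slc16a7, the neuronal lactate transporter MCT2, had the lowest value, -0.28 (adjusted p = 0.305), but in the blocked fit with the offset it turned to 0.40 and was called higher (adjusted p = 0.00625). With Slc2a1, Slc16a1 and Emb, 4 of the 12 were then called higher.

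The enzymes that set fructose 2,6-bisphosphate, the activator of phosphofructokinase, had values below 0. Of 5 genes 4 were tested, all with negative values (median -0.25), and 1, Pfkfb2, was called lower with the block. Pfkfb2 had 15.4, 12.7 and 17.3 CPM in total and 9.06, 8.74 and 7.82 CPM on polyribosomes (log2 fold change -0.78, adjusted p = 0.0275, and 0.00185 with the block), but did not pass with the GC and length offset (adjusted p = 0.0534). Pfkfb3, with the value nearest 0, was at -0.13 (adjusted p = 0.717).

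Of 28 genes of pyruvate entry and the TCA cycle, which receive the product of glycolysis, all were tested, with a median of 0.27, and 9 were called higher and 2 lower with the block, beside the 11.8% and 13.2% of all genes. With the GC and length offset as well, 6 were called higher and 0 lower, beside 8.94% of all genes called higher. The highest was Sdhc, a membrane subunit of succinate dehydrogenase (0.70, adjusted p = 0.0198, and 2.15e-05 with the block), and the lowest Pdp1, a phosphatase that activates pyruvate dehydrogenase (-0.85, adjusted p = 0.0244, and 3.24e-06 with the block, but 0.0318 with the offset as well). The other genes called with the block were Cs, Idh3b, Idh3g, Mdh2, Mpc2, Pdk2, Sdhb and Suclg1, all higher, and Pdk1, lower. Of the genes called with the block, only Cs, Sdhc and Suclg1 stayed called with the offset as well. Idh3a, Mpc1 and Pdhx were called higher only with the offset. The median for the 28 genes was 0.20, 0.19 and 0.60 in preparations 1 to 3, and that of the 10 glycolytic mRNAs was 0.28, 0.47 and 0.73. No test of this difference was made.

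In the fit on the groups alone, markers of astrocytes had a median close to that of the 10 glycolytic mRNAs (0.56). Markers of neurons had a median near 0. With the block and the GC and length offset, the median was 0.25 for the 10 mRNAs, 0.55 for astrocyte markers and -0.06 for neuron markers. It was then 0.33 for oligodendrocyte, 0.31 for endothelial and 0.18 for microglia markers. All 11 astrocyte markers had positive log2 fold changes without the block (median 0.54), from 0.10 for Aqp4 to 0.88 for Aldh1l1. With the block, 7 of 11 were called higher, beside 11.8% of all genes. With the GC and length offset as well, 11 of 11 were, beside 8.94%. Their summed level was 43726 to 46471 CPM on polyribosomes and 34774 to 39742 CPM in total, and none was at 0. Most of this sum was Slc1a2, with means of 31981 CPM on polyribosomes and 27872 CPM in total. Its log2 fold change was 0.20 and was not called without the offset (edgeR adjusted p = 0.507, and 0.270 with the block). The 10 neuron markers had a median of 0.01, with 5 above and 5 below 0, from -0.66 for Gad2 to 0.87 for Nrgn, and summed levels that overlapped (8175 to 10327 CPM on polyribosomes, 7912 to 9271 CPM in total). All 8 oligodendrocyte markers were above 0 (median 0.38, lowest Mobp, highest Cldn11). Cldn11 alone was called without the block (0.83, adjusted p = 0.00751). The 9 microglia markers (median 0.36, P2ry12 to C1qa) and the 7 endothelial markers (median 0.24, Tek to Cldn5) were mostly positive with all 6 libraries. Without preparation 3, medians in the fit on the groups alone were 0.43 for astrocyte, 0.32 for oligodendrocyte, 0.29 for microglia and -0.0058 for neuron markers. The endothelial median was then -0.00095, with 3 markers above and 4 below 0. With the block, 4 of the 8 oligodendrocyte, 4 of the 9 microglia and 1 of the 7 endothelial markers were called higher. Of the 10 neuron markers, 2 were called higher and 2 lower, where 13.2% of all genes were called lower. With the offset as well, 3 oligodendrocyte, 4 microglia, 0 endothelial and 1 of the neuron markers were called higher. The part of these cell types in the glycolytic values was not tested. The fraction thus held neuronal mRNAs such as Camk2a and Syt1 and glial mRNAs such as Slc1a2 in all 6 libraries.

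**Figure D5:**
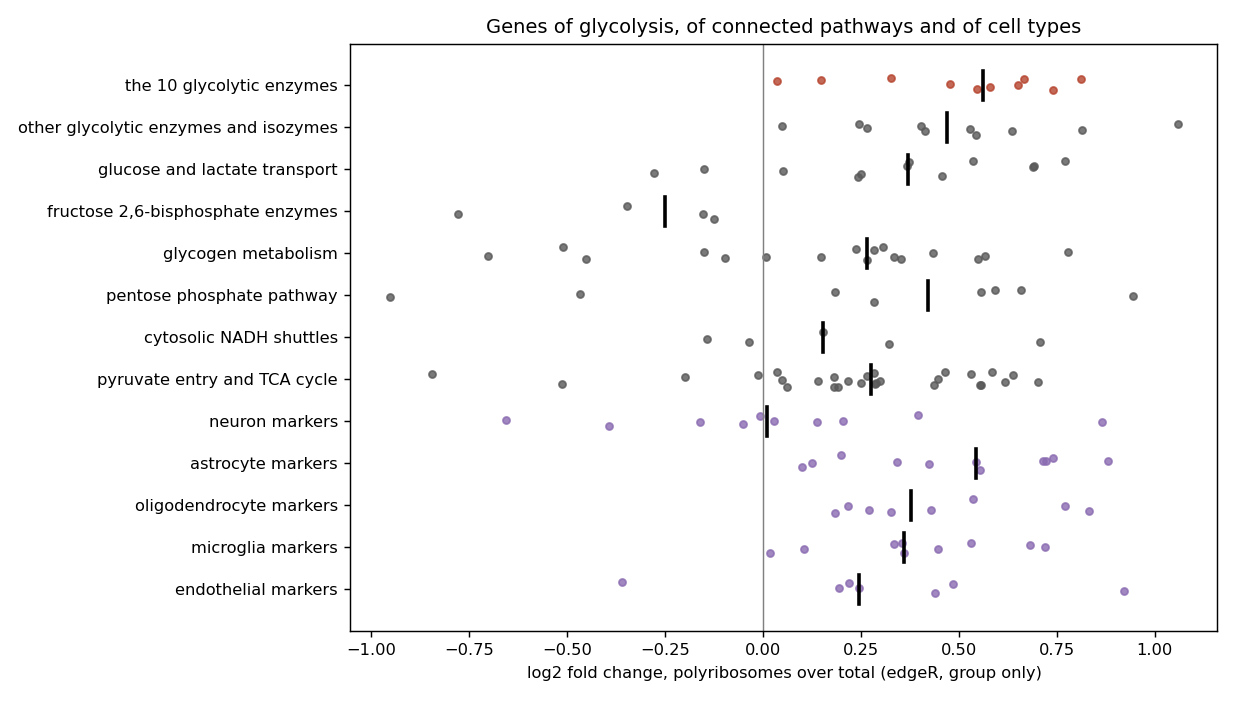
Log2 fold change of polyribosomes over total (edgeR, group only) for each gene tested of the 10 glycolytic enzymes (red), of connected pathways (grey) and of cell type markers (purple), with black bars for the medians. In this fit, without the GC and length offset, the median of the 10 enzymes (0.56) is close to that of the astrocyte markers (0.54). The neuron markers lie around 0, and the 4 enzymes of fructose 2,6-bisphosphate lie below 0.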

How the data were processed

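The authors depleted ribosomal RNA, made strand-specific libraries, mapped reads with STAR 2.5.2b to GRCm38 and counted them on Gencode vM6. The deposited values used here are raw counts per gene, without normalization. The deposited table also holds the authors' DESeq2 comparison (mean normalized signal, log2 fold change and its error, a test score, p-value and adjusted p-value), which was not used. Counts were compared with edgeR 4.0.16 in R 4.3.3 (TMM, filterByExpr, quasi-likelihood test, Benjamini-Hochberg adjustment over 12255 genes, threshold 0.01). Alternatives were DESeq2 1.42.0, other scalings and filters, an offset for GC content and exon length (Gencode vM21), leaving out libraries, and the replicate block. The pairing comes from the study's aliquots of 1 preparation and shared column labels; deviations of same-numbered libraries correlated with coefficients of 0.366, 0.258 and 0.38. The sources used here do not state that preparations came from separate mice, so p-values measure the spread between these samples. Replicates differed by more than sampling noise (chi-square per degree of freedom 3.4 to 19.7).

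Named genes were the 10 enzymes, their partner isozymes, Gpi1, Pgam1, genes called with or without the block, and the highest and lowest of each list; Camk2a, Syt1 and Slc1a2 were chosen after their values were seen. Members and lists were chosen with earlier results of these data known.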

Additional observations from a re-analysis of the deposited data

How the results depend on the processing

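The number of glycolytic mRNAs called higher was 0 in the fit on the groups alone and in each fit without 1 library. None was called lower in any fit. The fit on the groups alone called 87 of 12255 genes higher. The fits without 1 library called 0 to 61 higher, of 12270 to 12743 genes tested. With so few calls among all genes, a count of 0 does not set the glycolytic mRNAs apart. The number of glycolytic mRNAs called higher was 2 over all genes with a count (Aldoa 0.77, Ldhb 0.84), 1 with DESeq2 (Ldhb 0.83) and 2 without preparation 3 (Aldoa 0.62, Ldhb 0.63). With the replicate block it was 7: Aldoa 0.71, Tpi1 0.53, Gapdh 0.61, Pgk1 0.43, Eno1 0.60 (0.57 with Eno1b summed), Pkm 0.51 and Ldhb 0.76. With the block and the GC and length offset it was 1 (Ldhb 0.48), near the 8.94% of all genes called higher. With the block and without preparation 1 it was 7: Aldoa 0.73, Tpi1 0.68, Gapdh 0.72, Pgk1 0.56, Eno1 0.67, Pkm 0.58 and Ldhb 0.88. With the block and without preparation 2 it was 2 (Aldoa 0.76, Ldhb 0.75), and without preparation 3 it was 6: Aldoa 0.62, Tpi1 0.33, Gapdh 0.43, Eno1 0.51, Pkm 0.40 and Ldhb 0.63.

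The median of the 10 log2 fold changes was 0.29 with the GC and length offset and 0.25 with the block as well, and ranged from 0.26 (without polyribosome replicate 3) to 0.74 as each library was left out. Pfkp turned negative with library totals alone (-0.0756), with the block (-0.00605), without preparation 3 (-0.0878, and -0.0896 with the block) and ranged from -0.22 to 0.18 as each library was left out. Eno2 turned negative with the GC and length offset (-0.0544, and -0.0730 with the block) and ranged from -0.0299 to 0.29 as each library was left out. The other 8 mRNAs kept a positive value in every fit. Library totals alone moved the median of all genes to -0.11 and that of the 10 to 0.45.

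Per kilobase of coding length in place of exon length, polyribosome levels were 127 CPM for Hk1, 60.8 for Pfkp, 731 for Aldoa and 329 for Tpi1. They were 811 CPM for Gapdh, 172 for Pgk1, 354 for Eno1, 230 for Eno2, 489 for Pkm and 408 for Ldhb. With the block, the genes called higher numbered 5 of the other glycolytic enzymes, 2 of transport, 3 of glycogen metabolism, 4 of the pentose phosphate pathway, 1 of the NADH shuttles and 9 of pyruvate entry and the TCA cycle, beside 0 in the fit on the groups alone with all libraries. Those called lower numbered 1 of the fructose 2,6-bisphosphate enzymes, 2 of glycogen metabolism, 1 of the pentose phosphate pathway and 2 of the TCA cycle. The median of the pentose phosphate genes was 0.36 with the block and 0.30 with library totals alone. Without preparation 3, in the fit on the groups alone, it was 0.34. In that fit the median was 0.41 for the other glycolytic enzymes, 0.23 for transport and -0.34 for the fructose 2,6-bisphosphate enzymes. It was 0.22 for glycogen metabolism, 0.09 for the NADH shuttles and 0.16 for pyruvate entry and the TCA cycle (20 genes above and 8 below 0). The isozyme ratios kept their direction in every alternative. The cause of these differences was not tested. Total replicate 3, the shallowest library, limits the precision for rare mRNAs such as Hk2, and 3 preparations limit every value.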

Other observations

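Branches that leave glycolysis gave mixed values. Of 8 genes of the pentose phosphate pathway, which makes NADPH, 4 were called higher on polyribosomes with the block (G6pdx, Pgd, Taldo1 and Tkt) and 1 was called lower (Rpe), beside 11.8% and 13.2% of all genes, and the median log2 fold change without the block was 0.42. Pgd, the second dehydrogenase of the oxidative branch, was highest, with 16.4, 17.7 and 27.8 CPM in total replicates 1 to 3 and 25.7, 32.7 and 54.1 CPM on polyribosomes (0.95, edgeR adjusted p = 0.0369, and 2.54e-05 with the block). Rpe, the ribulose phosphate epimerase, was lowest, with 15.6, 15.4 and 26.9 CPM in total and 9.74, 9.04 and 8.65 CPM on polyribosomes (-0.95, edgeR adjusted p = 0.0176, and 7.08e-05 with the block). The pairs of Rpe differed by -0.68, -0.77 and -1.63 in preparations 1 to 3. With the GC and length offset in the blocked fit, Pgd and Tkt stayed called and Rpe did not (adjusted p = 0.0176).

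Of 17 genes of glycogen metabolism, 3 were called higher with the block (Pgm2, Pygb and Pygm) and 2 lower (Pgm2l1 and Phkg2), shares near those of all genes (11.8% and 13.2%), with a median of 0.26. With the GC and length offset as well, Pgm2, Pygb and Pygm stayed called higher and Phkg2 lower. Pygm, the muscle-type glycogen phosphorylase, had 81.9, 72.0 and 98.8 CPM in total and 141, 102 and 187 CPM on polyribosomes (0.78, edgeR adjusted p = 0.0286, and 2.15e-06 with the block). Pgm2l1, the glucose 1,6-bisphosphate synthase, had 278, 233 and 184 CPM in total and 182, 140 and 107 CPM on polyribosomes (-0.70, edgeR adjusted p = 0.0382, and 2.31e-06 with the block), but did not pass with the GC and length offset (-0.19, adjusted p = 0.208). Of 5 genes of the cytosolic NADH shuttles, Gpd1, the glycerol 3-phosphate dehydrogenase that reoxidizes NADH, was highest (0.71, edgeR adjusted p = 0.0378, and 1.2e-05 with the block), and Gpd2, its mitochondrial partner, lowest (-0.14, adjusted p = 0.573).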
